A study of Rattus norvegicus with 18 samples.

Results

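The genes described here encode the proteins that take a new protein into the endoplasmic reticulum (ER), fold it there, and carry it through the Golgi apparatus in coated vesicles. They were chosen by name from the gene symbols annotated to the probe sets of an Affymetrix rat genome array: symbols starting with Sec and a digit, Ssr, Rpn1 or Rpn2, Pdia, Rcn, Kdelr, Tmed, Cop with a subunit letter, Arf or Rab with a digit, and in addition P4hb, Hspa5, Hsp90b1, Calr, Canx and Ddost. This gave 67 genes, read by 104 of 8740 probe sets, out of 4736 genes with 1 symbol on the array. Of these, 41 had 1 probe set and 26 had several, and for the latter the brightest probe set over the 18 arrays stood for the gene. By role they were 6 genes of entry into the ER, 3 subunits of the oligosaccharyl transferase, 12 of folding, 8 of the coats and cargo receptors between ER and Golgi, 6 of the Arf family and 30 of the Rab family. The remaining 2 matched by name only: Ssrp1, a subunit of a chromatin complex, and Sec14l3, a lipid-binding protein. The Rab names included Rab3ip and Rab11fip5, which bind Rab proteins and are not Rab proteins themselves. The mean signal was at least 200 for 50 genes, and these are described with values. The other 17 were dim: Arf3, Sec22a, Rcn1, Pdia2, Sec14l3, and the Rab genes Rab33b, Rab3b, Rab3c, Rab29, Rab15, Rab26, Rab3d, Rab3a, Rab2a, Rab4a, Rab3ip and Rab27a.

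The RNA came from the middle of the femoral shaft of intact female Sprague-Dawley rats, with callus, cortical bone and marrow together. Young rats were 6, adult rats 26 and older rats 52 weeks of age. The controls had no fracture per the labels (0 time; the methods call them sham), and the others had a rod in the marrow cavity and a closed mid-shaft fracture 0.4 week (3 days in the labels), 1, 2, 4 or 6 weeks before. RNA of 2 rats was pooled for each array, and these 18 arrays are 1 of the study's 3 sets, so that each age and time had 1 array and each time had 3, 1 from each age. No time had 2 arrays of 1 age, and the 3 ages therefore stood in for replicates. The fit takes out the mean level of each age. The spread behind each standard error (SE) thus holds how the ages differed in their course over time, as well as animals and arrays.

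Bone, cartilage and the fibrous tissue of a callus are built from secreted proteins, above all collagens. A collagen chain enters the ER through the Sec61 channel as it is made, loses its signal peptide, is glycosylated and hydroxylated, and is folded with the help of chaperones and disulfide isomerases. It leaves in vesicles with a COPII coat, COPI vesicles return escaped ER proteins, and small GTPases of the Arf and Rab families direct the vesicles. When unfolded proteins build up in the ER, the sensors ATF6 and IRE1, the latter through XBP1, raise the transcription of chaperone genes from short promoter elements.

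Those elements were looked for in the RefSeq promoters (GRCr8, 250 bases before to 50 after the start of each gene), of which 60 of the 67 genes had one in the table. No window was at hand for Pdia3, Pdia6, Rab26, Rab2a, Rab38, Rcn3 and Sec61a1. The ER stress response element (ERSE: CCAAT, then 9 bases of any kind, then CCACG, on either strand) was found in 21 of 27457 promoters (0.0765%) and in 4 genes described here, Hspa5, Hsp90b1, Canx and Calr, all of them ER chaperones. They are shown because the size of the change of these 4 genes depended on the probe set, as described under folding. In the sequences that follow, 5′ to 3′ on the gene's strand, the capitals mark the element.
Hspa5, chr3:38452938-38453025, plus strand, element at -43 to -25 from the start: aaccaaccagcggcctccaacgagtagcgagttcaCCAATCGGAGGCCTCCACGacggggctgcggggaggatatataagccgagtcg
Hsp90b1, chr7:23012416-23012504, minus strand, first element at -176 to -158: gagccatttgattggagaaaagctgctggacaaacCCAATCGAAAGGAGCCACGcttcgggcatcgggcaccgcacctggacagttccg
Hsp90b1, chr7:23012312-23012400, minus strand, second element at -72 to -54, read on the opposite strand: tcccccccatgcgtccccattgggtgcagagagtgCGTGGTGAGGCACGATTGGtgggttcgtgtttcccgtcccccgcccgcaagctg
Canx, chr10:35158034-35158107, minus strand, element at -230 to -212: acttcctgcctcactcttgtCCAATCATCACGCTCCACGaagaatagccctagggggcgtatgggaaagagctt
Calr, chr19:40213117-40213188, plus strand, element at -232 to -214, read on the opposite strand: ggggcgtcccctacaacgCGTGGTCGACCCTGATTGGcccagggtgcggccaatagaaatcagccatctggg

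A second element, TGACGTGG (the unfolded protein response element, UPRE, on either strand), was found in 175 promoters (0.637%) and in 4 of these genes, Arf1, Arf4, Copb1 and Copb2, in each close to the start. The F test over time called Arf4, Copb1 and Copb2 of these, as it did 44.8% of the 67 genes and 26.4% of all probe sets. Arf1 rose at 0.4 week, as did 14.1% of all probe sets. Of the genes with an ERSE, the F test called Hspa5. By their brightest probe sets it did not call Hsp90b1, Canx and Calr (adjusted p = 0.077, 0.067 and 0.32). Whether the elements had a part in any change was not tested.
Arf4, chr16:1903392-1903445, plus strand, element at -9 to -2: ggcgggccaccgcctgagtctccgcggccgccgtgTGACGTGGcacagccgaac
Arf1, chr10:44513985-44514059, minus strand, element at -30 to -23: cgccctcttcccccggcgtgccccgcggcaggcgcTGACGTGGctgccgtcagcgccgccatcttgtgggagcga
Copb1, chr1:177872831-177872881, minus strand, element at -6 to 2, read on the opposite strand: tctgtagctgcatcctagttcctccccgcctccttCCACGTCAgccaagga
Copb2, chr8:108040642-108040696, plus strand, element at -10 to -3, read on the opposite strand: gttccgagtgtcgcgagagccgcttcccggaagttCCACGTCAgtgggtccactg
The related ERSE-II (ATTGG, 1 base of any kind, CCACG) and the cyclic AMP element TGACGTCA were in 0.0546% and 1.91% of all promoters and in 0 of the 60. The plain CCAAT box, which lies inside every ERSE, was in 37.7% of all promoters and in 30 of the 60 (50%). A match of letters is a description of the window and not a measured binding site.

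Values are linear signals in arbitrary units, which the authors scaled to an average of 500 on each array. The median signal per array was 151 to 189, and 10.5% to 17.9% of probe sets were below 20. The ratio of the 3′ to the 5′ probe set of Gapdh, which rises as RNA breaks down, was 3.48 on the young 4-week and 6.57 on the young 6-week array and 1.15 to 1.83 on the other 16. Signals were set to at least 20 and taken to log2, so that 1 unit is a 2-fold difference, and each time was compared with 0 time by limma with age as a second term, the p-values being adjusted over all 8740 probe sets. A gene is called changed at an adjusted p under 0.05.

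Fracture was followed by a rise of the ER and coat genes at all 3 ages, for most highest at 0.4 week, as the plot of fitted changes by role shows. At 0.4 week 33 of the 67 genes rose and 3 fell, while of all probe sets 14.1% rose and 17.1% fell. At 1 week 30 rose and 3 fell (all probe sets 14.6% and 20.4%), and at 2 weeks 26 rose and 2 fell (9.49% and 10.3%). At 4 weeks 6 rose and 0 fell (3.31% and 1.77%), and at 6 weeks 0 passed the limma test in either direction (0.561% and 0.320%). At an unadjusted p under 0.05, 20 were higher and 0 lower at 6 weeks, against 889 and 903 of all 8740 probe sets. The median log2 change of the 67 was 0.86, 0.54, 0.49, 0.33 and 0.19 at the 5 times in order, against -0.13, -0.13, -0.13, -0.04 and -0.06 over all probe sets. In the F test over the 5 later times 30 of the 67 were called, against 26.4% of all probe sets, 28.8% of the brightest probe sets per gene and 39.9% of probe sets averaging at least 200, and in 29 of the 30 the largest change was a rise. Of these 29, the mean over the ages was highest at 0.4 week for 23 and at 1 week for 6.

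**Figure D1:**
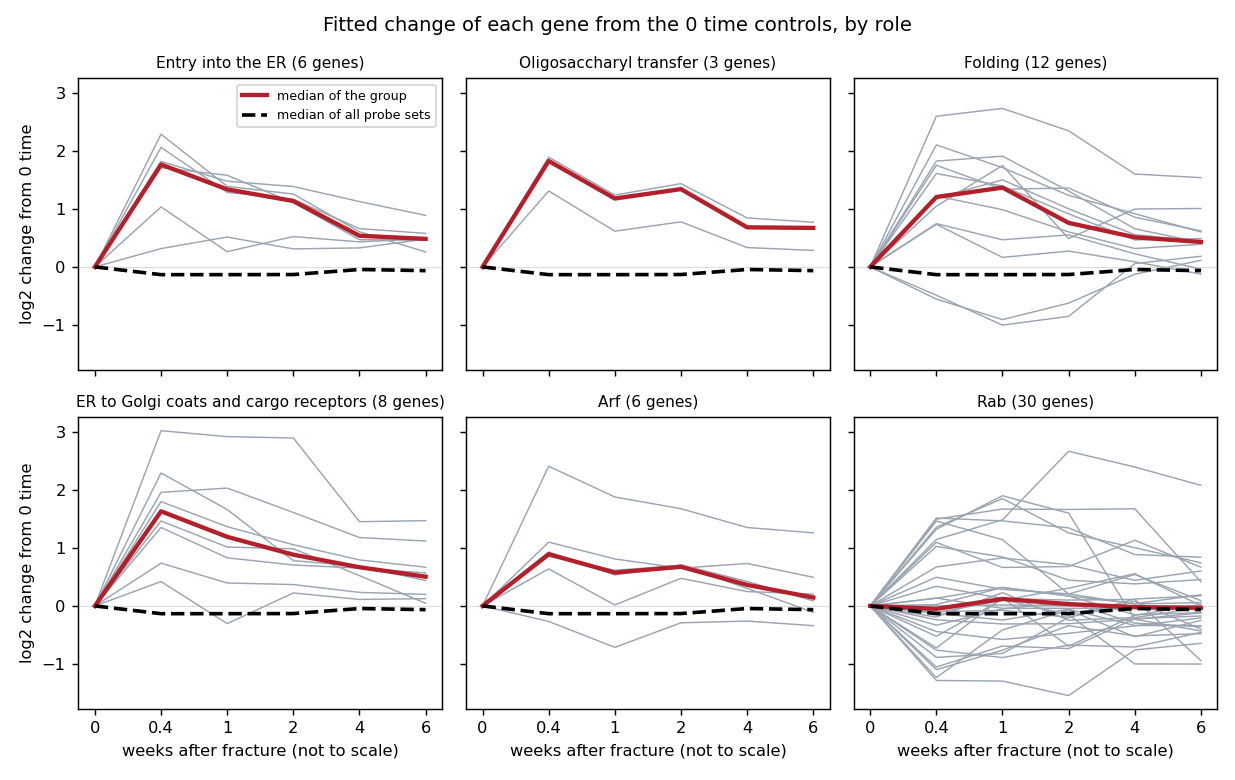
Fitted log2 change from 0 time (vertical axis) at each time after fracture (horizontal axis, in weeks and not to scale) for every gene, in 6 panels by role. Grey lines are single genes, the red line is the median of the role and the dashed line the median of all probe sets, which lies between -0.13 and -0.04 after fracture while the medians of the ER and coat roles reach 1.37 to 1.83.

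The rise was unevenly spread over the pathway. At 0.4 week it was called for 5 of 6 genes of ER entry, 3 of 3 of oligosaccharyl transfer, 8 of 12 of folding, 7 of 8 of the coats and 5 of 6 of the Arf family, but for 5 of 30 of the Rab family, where 3 fell. The median log2 change at that time was 1.77 for ER entry, 1.83 for oligosaccharyl transfer, 1.21 for folding, 1.63 for the coats, 0.89 for Arf and -0.05 for Rab. Taken as 1 group, the 29 genes of the first 4 roles held 23 that rose and 0 that fell, or 79.3% against 14.1% of all probe sets, 15.3% of the brightest probe sets per gene and 23.6% of probe sets averaging at least 200. Without use of the fit, the 3 arrays at 0.4 week all lay above the 3 at 0 time for 39 of the 67 genes and all below for 5, which was so for 17.0% and 21.6% of all probe sets. The counts depended on which ages were kept: with the adult arrays left out 10 genes rose at 0.4 week, with the older ones left out 15, and with the young ones left out 34. The same was so over all 8740 probe sets, of which 148, 263 and 1282 rose in these fits, against 1229 with all ages.

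**Figure D2:**
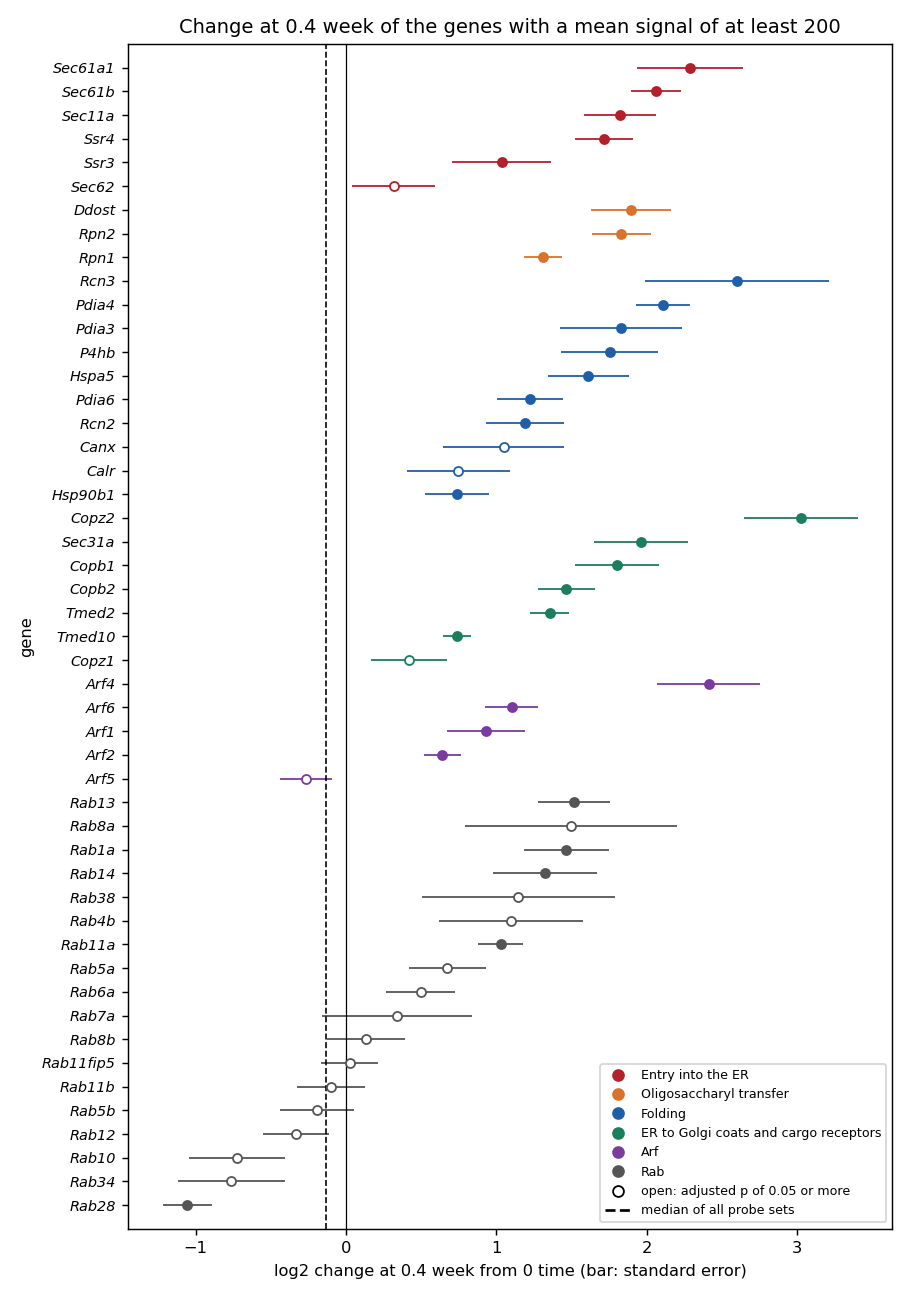
Log2 change at 0.4 week from 0 time (horizontal axis) with its standard error (bars) for the 49 genes of the 6 roles averaging 200 or more, coloured and grouped by role. Filled points passed an adjusted p of 0.05, and the dashed line is the median of all probe sets at -0.13; filled points of the ER, coat and Arf roles all lie to the right, and of the Rab genes 4 lie to the right and 1 to the left.

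Of the 6 genes of entry into the ER, 5 rose at 0.4 week and 4 at 1 and at 2 weeks. Sec61b, a small subunit of the Sec61 channel through which new chains pass, had signals in young, adult and older rats of 1740.2, 1073 and 1049 without fracture, 5211, 5286 and 5174 after 0.4 week, 3225, 2861 and 3085 after 1 week, 2977, 2382 and 3124 after 2 weeks, 1976, 1698 and 2305 after 4, and 1775, 2009 and 1829 after 6 weeks. The 3 arrays at 0.4 week were nearly equal and above every other array, and the control was the lowest array of each age. Its log2 change at 0.4 week was 2.06 ± 0.17 (SE, n = 3 arrays a time, limma, adjusted p = 6.5e-05), or 4.18-fold. Sec61a1, which forms the channel itself, went from 588, 338 and 374 at 0 time to 1757, 2069.6 and 2386 at 0.4 week, a log2 change of 2.29 ± 0.35 (adjusted p = 0.0011). On the young 4- and 6-week arrays, those with the high Gapdh ratio, its signal was 401 and 285, below the young control, while the adult and older arrays of those times read 615 to 816. Whether RNA quality had a part in this was not tested.

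Sec11a, a catalytic subunit of the signal peptidase, which removes the signal peptide, rose from 983, 575 and 384 to 2264, 2203 and 1911 at 0.4 week, by 1.82 ± 0.24 on the log2 scale (adjusted p = 0.00052), and was still higher at 4 weeks (1.13 ± 0.24, adjusted p = 0.032). Ssr4, a subunit of the translocon-associated protein complex, rose by its brightest probe set from 1518, 1299 and 965 to 4053, 4375 and 3772 (log2 1.71 ± 0.19, adjusted p = 0.00026). A dimmer probe set of Ssr4 was called higher at 0.4 week too (1.46), while its dimmest read -0.77 and was not called. Ssr3, of the same complex, was by its brightest probe set called at 0.4 week alone, where it rose (1.03 ± 0.33, adjusted p = 0.034), and its older 1-week array, at 1469, lay below all 3 controls. The dimmer probe set of Ssr3 was called higher at 0.4 and 1 week (2.09 and 1.89). Sec62, which serves chains that enter after they are made, did not pass the test at any time, with a log2 change of 0.32 ± 0.28 at 0.4 week (adjusted p = 0.41). Its older arrays read 619 at 0 time and 618 at 0.4 week, so the ages did not move alike.

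The 3 measured subunits of the oligosaccharyl transferase, which moves a preformed sugar chain onto the new protein, rose at 0.4, 1 and 2 weeks. Rpn2 had signals of 1382, 916 and 690.1 without fracture, 3729, 3226 and 3254 after 0.4 week, 2011, 1981 and 2552 after 1 week, 2662, 2333 and 2293 after 2 weeks, 1466, 1362 and 1811 after 4, and 1569, 1517 and 1488 after 6 weeks in young, adult and older rats. The arrays at 0.4 week lay above all others, those at 1 and 2 weeks above all controls, and no array after fracture lay below the control of its age. The log2 change of Rpn2 came to 1.83 ± 0.20 by 0.4 week, 1.18 ± 0.20 at 1 week and 1.34 ± 0.20 at 2 weeks (adjusted p = 0.0002, 0.0021 and 0.0036). Ddost rose from 548, 269 and 234 to 1191, 1267 and 1176 (log2 1.90 ± 0.27, adjusted p = 0.0007). Rpn1 rose from 1507, 890.4 and 1048 to 2939, 2873 and 2541, the smallest change of the 3 (log2 1.31 ± 0.13, adjusted p = 0.00012). All 3 were lower at 1 week than at 2 weeks in the fit, a difference that was not tested.

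Of the 12 folding genes, 8 rose at 0.4 week and 8 at 1 week. P4hb, the protein disulfide isomerase that is also the beta subunit of the collagen prolyl 4-hydroxylase, was the brightest after Calr, with signals of 4733, 2125 and 2102 without fracture, 9413, 9669 and 8918 after 0.4 week, 6668, 6760.1 and 7614 after 1 week, 6791, 7669 and 6887 after 2 weeks, 4172, 4795 and 6295 after 4, and 2761, 5253 and 5309 after 6 weeks in young, adult and older rats. The 3 arrays at 0.4 week were the highest, at about the same level at each age, and the controls differed, the young one being 2.25-fold above the older one. The young 6-week array, at 2761, was the lowest of that age. The log2 change came to 1.75 ± 0.32 by 0.4 week (3.37-fold, adjusted p = 0.0028), 1.34 ± 0.32 at 1 week and 1.36 ± 0.32 at 2 weeks (adjusted p = 0.010 and 0.018). The dimmer probe sets of P4hb rose by 3.27 and 1.99 at 0.4 week and were called.

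The other disulfide isomerases differed in how high and how long they rose. Pdia4 had signals of 214, 179 and 154 without fracture, 830.4, 838 and 674 after 0.4 week, 617, 477 and 705 after 1 week, 510.4, 418 and 361 after 2 weeks, 324, 334 and 368 after 4, and 254, 318 and 256 after 6 weeks. By the brightest probe set of each gene, Pdia4 was the folding gene with the smallest F-test p and the only one still called at 4 weeks. Its log2 change there was 0.92 ± 0.18 (adjusted p = 0.025), after 2.11 ± 0.18 at 0.4 week (adjusted p = 6.5e-05). Pdia3, which works on glycoproteins held by calnexin and calreticulin, read 2309.5, 986 and 595 at 0 time, 4092, 3619 and 4075 at 0.4 week and 5070.1, 3258 and 4357 at 1 week (log2 1.83 ± 0.40 and 1.91 ± 0.40, adjusted p = 0.0071 and 0.0058). Here the young control was 3.88-fold above the older one. Pdia6 rose by 1.22 ± 0.22 at 0.4 week (adjusted p = 0.0026), from 3072, 1321 and 1772 to 4321, 4792 and 4417. Pdia2, an isomerase known from the pancreas, was dim, and its log2 change at 0.4 week was -0.56 ± 0.40 (adjusted p = 0.31).

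By their brightest probe sets the ER chaperones were uneven. Hspa5 (BiP), the ER member of the Hsp70 family and the usual marker of ER stress, had signals of 2511, 1312 and 894 without fracture, 3978, 4939 and 4278 after 0.4 week, 4449, 3222 and 3749 after 1 week, 2516, 2777 and 2826 after 2 weeks, 1901, 2287 and 1784 after 4, and 1951, 2077 and 2009 after 6 weeks in young, adult and older rats. The arrays of 0.4 and 1 week were the 6 highest, those of 4 and 6 weeks lay between the controls of the young and of the older rats, and the young control was already at 2511. It was up by 1.61 ± 0.27 at 0.4 week on the log2 scale (3.06-fold, adjusted p = 0.0017), 1.40 ± 0.27 at 1 week and 0.92 ± 0.27 at 2 weeks (adjusted p = 0.004 and 0.038). Hsp90b1 (GRP94), the ER member of the Hsp90 family, by its brightest probe set rose at 0.4 week alone of the 5 times. It went from 1666, 1429.5 and 1706 to 2467, 2509 and 3031 (log2 0.74 ± 0.21, adjusted p = 0.024). Canx (calnexin), a membrane-bound chaperone of glycoproteins, by its brightest probe set rose at 1 week alone. It went from 1774, 832 and 642 to 3717, 3152 and 3074 (log2 1.75 ± 0.40, adjusted p = 0.0084). Its young array at 0.4 week, at 1324, lay below the young control.

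Calr (calreticulin), the soluble partner of calnexin, was the brightest of the 67 genes and did not pass the test, with 5996, 2997 and 5946 at 0 time and 7797, 8803 and 7359 at 0.4 week (log2 0.75 ± 0.34, adjusted p = 0.12). For all 4 chaperones with an ERSE the size and the times called depended on the probe set. The other 2 probe sets of Calr, both dimmer, were both called at 0.4 week, with log2 changes of 2.17 and 1.38, as were those of Hsp90b1 (1.77 and 1.28) and the 4 others of Canx (1.06 to 2.27). Those of Hsp90b1 were called at 1 week too (1.15 and 1.09). Of those of Canx, 2 were still called at 4 weeks (1.83 and 1.01). The other 2 probe sets of Hspa5 had smaller changes than its brightest, at 0.07 and 0.60, and were not called. The order of these 4 genes by size of change therefore depends on the probe set, and no order is given.

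Among the reticulocalbins, calcium-binding proteins of the ER lumen, Rcn3 had one of the largest changes of all 67 genes. Its signals in young, adult and older rats were 1791, 337 and 411 without fracture, 2289, 5592 and 4327 after 0.4 week, 3633, 5453 and 3692 after 1 week, 2499.8, 3219.8 and 4071 after 2 weeks, 1558, 2085 and 2139 after 4, and 909.9, 2736 and 2454 after 6 weeks. The adult and older controls were at 337 and 411 and the young control at 1791, so that at 1 week the adult array, from a far lower control, was above the young one. The log2 change over the 3 ages was 2.60 ± 0.61 at 0.4 week and 2.73 ± 0.61 at 1 week (adjusted p = 0.0093 and 0.0073), with an SE wider than that of the other folding genes. The dimmer probe set of Rcn3 rose by 4.47, 3.81 and 3.98 at 0.4, 1 and 2 weeks and was called at each. Rcn2 rose by 1.19 ± 0.26 and 1.50 ± 0.26 at 0.4 and 1 week (adjusted p = 0.0064 and 0.0024). Rcn1 was dim and at 0.4 week had a log2 change of -0.49 ± 0.44 (adjusted p = 0.42).

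**Figure D3:**
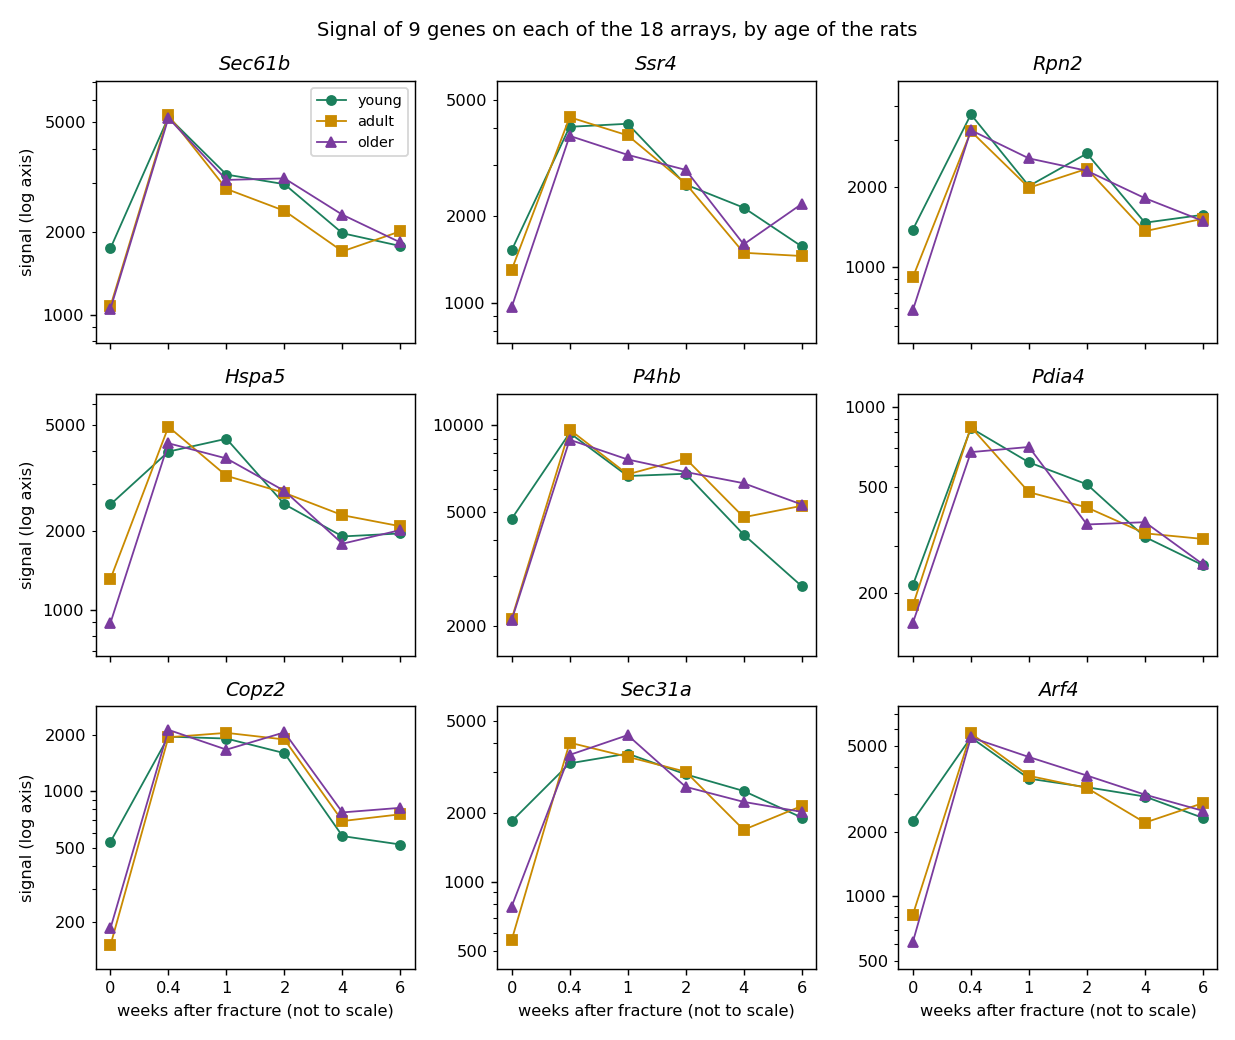
Signal (vertical axis, logarithmic, arbitrary units) on each of the 18 arrays for Sec61b, Ssr4, Rpn2, Hspa5, P4hb, Pdia4, Copz2, Sec31a and Arf4, by weeks after fracture (horizontal axis, not to scale); each point is 1 array of 2 pooled rats and lines join the arrays of an age. In each panel the young control is the highest of the 3 ages at 0 time, and the ages lie closer together at 0.4 week, where Sec61b read 5174 to 5286.

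Of the 8 genes of the coats and cargo receptors, 7 rose at 0.4 week and at 1 week. By the brightest probe set of each gene, Copz2, the zeta-2 subunit of the COPI coat, had the largest change of all 67 genes. A dimmer probe set of Rcn3 and a dimmer probe set of P4hb changed more. Copz2 had signals of 537, 151 and 186 without fracture, 1956, 1942 and 2127 after 0.4 week, 1911, 2049.6 and 1668 after 1 week, 1597, 1889.6 and 2063 after 2 weeks, 577, 694 and 772 after 4, and 520.2, 754 and 817 after 6 weeks in young, adult and older rats. It kept one level from 0.4 to 2 weeks, between 1597 and 2127 on all 9 arrays, and at 4 and 6 weeks it was at 520.2 to 817, near the young control and above the other controls. The log2 change was 3.02 ± 0.38, 2.92 ± 0.38 and 2.90 ± 0.38 at the first 3 times (adjusted p = 0.00041, 0.00088 and 0.0034), or 8.13-fold at 0.4 week. Its paralog Copz1 was not called at any time (0.42 ± 0.25 at 0.4 week, adjusted p = 0.22), at 3982, 2175 and 3233 at 0 time and 4513, 3437 and 4325 at 0.4 week.

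Sec31a, of the outer COPII coat, which buds vesicles from the ER, read 1836, 559 and 781 without fracture, 3278, 4033 and 3567 after 0.4 week, 3614, 3499.8 and 4348 after 1 week, 2937, 3014 and 2591 after 2 weeks, 2485, 1685 and 2228 after 4, and 1905, 2139 and 2017 after 6 weeks. Every array at 0.4, 1 and 2 weeks lay above every control, and the log2 change was 1.96 ± 0.31 at 0.4 week and 2.03 ± 0.31 at 1 week (adjusted p = 0.0013 and 0.0016). Of the dimmer probe sets of Sec31a, the dimmest was called at 0.4 and 1 week (2.11 and 1.17). The other read 0.65 and 0.01 and was not called. Copb2, the beta-prime subunit of COPI, rose from 516, 648 and 521 to 1664, 1483 and 1488 at 0.4 week (log2 1.47 ± 0.19, adjusted p = 0.00051). Copb1, the beta subunit, rose by 1.80 ± 0.28 (adjusted p = 0.0012); it lies outside the rule for naming genes and is given for its promoter. The cargo receptors of the p24 family, which cycle between ER and Golgi, were bright and by their brightest probe sets rose less: Tmed2 from 2624, 1989 and 1864 to 5153, 5717 and 5512 (log2 1.35 ± 0.13, adjusted p = 0.00012). Tmed10 rose from 3426, 3038 and 3681 to 5202, 5822 and 5864 (log2 0.74 ± 0.09, adjusted p = 0.00041), a small change with the smallest SE among the coat genes. The dimmer probe sets of Tmed2 and Tmed10 rose more at 0.4 week, by 1.80 and 1.63, and that of Copb2 by 2.56. Sec22a, a relative of the SNARE Sec22b, was dim; all its controls lay below the floor of 20, and it was called higher at 0.4 and 1 week.

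In the Arf family, whose members recruit coats to membranes, Arf4 had the largest change. Its signals were 2245, 824 and 615 without fracture, 5471, 5717 and 5475 after 0.4 week, 3523, 3629.6 and 4439 after 1 week, 3214, 3188 and 3641 after 2 weeks, 2908, 2201 and 2969 after 4, and 2315, 2712 and 2498 after 6 weeks in young, adult and older rats. At 0.4 week the 3 ages were nearly equal, and at 0 time the young rats were 3.65-fold above the older ones. Its log2 change was 2.41 ± 0.34 at 0.4 week and 1.35 ± 0.34 at 4 weeks (adjusted p = 0.00072 and 0.048). Arf6, which acts at the plasma membrane, rose by 1.10 ± 0.18 at 0.4 week (adjusted p = 0.0014), and Arf1, which brings COPI to the Golgi, rose by 0.93 ± 0.26 (adjusted p = 0.020). Arf2 rose by 0.64 ± 0.12 (adjusted p = 0.0034), but its second, dim probe set had -1.25, and the mean of both, -0.31, reversed the direction. Arf5 was the exception, with -0.27 ± 0.17 at 0.4 week (adjusted p = 0.25) and a fall at 1 week (-0.71 ± 0.17, adjusted p = 0.010). Arf3 was dim and was called higher at 0.4 week.

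The Rab family, GTPases that mark vesicle and organelle membranes, moved both ways, and most of its members were not called, as was so over all probe sets. Of 30 genes, 22, 22 and 24 were not called at the first 3 times, against 6018, 5686 and 7007 of all 8740 probe sets. Of the 18 averaging 200 or more the F test called 5 (27.8%), against 39.9% of all probe sets as bright. Rab1a, which acts between ER and Golgi, rose from 139, 203 and 149 to 366, 509 and 474 at 0.4 week (log2 1.47 ± 0.28, adjusted p = 0.0036) and was at 242, 169.6 and 156 at 2 weeks. Rab13 rose from 561, 313 and 325 to 1093, 1201 and 1019 and held that level to 2 weeks (1.52 ± 0.24 at 0.4 week, 1.35 ± 0.24 at 2 weeks, adjusted p = 0.0012 and 0.0073). Rab11a, of recycling endosomes, rose by 1.03 ± 0.15 at 0.4 week (adjusted p = 0.00081).

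Rab14, of the path between Golgi and endosomes, had the smallest F-test p of the Rab genes and a course of its own, with signals of 147, 122 and 102 without fracture, 370.3, 228 and 338 after 0.4 week, 426, 433 and 515 after 1 week, 340.4, 437 and 341 after 2 weeks, 78.0, 107 and 135 after 4, and 48.7, 105 and 145 after 6 weeks. It was highest at 1 week (log2 1.90 ± 0.34, adjusted p = 0.0029), still up at 2 weeks (1.60 ± 0.34, adjusted p = 0.013), and at 4 weeks at -0.23 ± 0.34 (adjusted p = 0.74). The young 4- and 6-week arrays were its lowest. Rab28 was the only one of the 67 called by the F test with a fall as its largest change, from 783, 964 and 1112 to 497, 472 and 399 at 0.4 week (log2 -1.05 ± 0.16, adjusted p = 0.0011), with no overlap between the groups. Its other probe set, with a mean signal of 322, did not bear out the fall. It read 0.18 at 0.4 week and was not called by limma there or by the F test. Rab10, Rab11b and Rab12, the brightest Rab genes not called, had log2 changes of -0.72 ± 0.32, -0.10 ± 0.23 and -0.33 ± 0.22 at 0.4 week (adjusted p = 0.11, 0.79 and 0.27). The dimmer probe sets of Rab11b differed. One was called lower at 0.4 and 2 weeks (-0.83 and -0.86), and the other, at 1.14 and 1.62, was not called. Rab38, which serves lysosome-related organelles and was picked for its late course after its values were seen, read 240.0, 63.2 and 33.4 at 0 time and 682, 394 and 484 at 2 weeks (log2 2.67 ± 0.64, adjusted p = 0.019) and was not called by the F test (adjusted p = 0.056). Its other, dim probe set read -0.44 at 2 weeks and was not called. The other 9 genes averaging 200 or more were not called at 0.4 week, with log2 changes from -0.76 (Rab34) to 1.50 (Rab8a), and of these Rab5a, of early endosomes, rose at 1 week (0.83 ± 0.26, adjusted p = 0.028). Among the dim Rab genes, Rab33b was called higher at 0.4, 1 and 2 weeks, Rab3b lower at those times and Rab29 lower at 0.4 week. Ssrp1, which matched by name only, had a log2 change of 0.32 ± 0.19 at 0.4 week (adjusted p = 0.21).

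**Figure D4:**
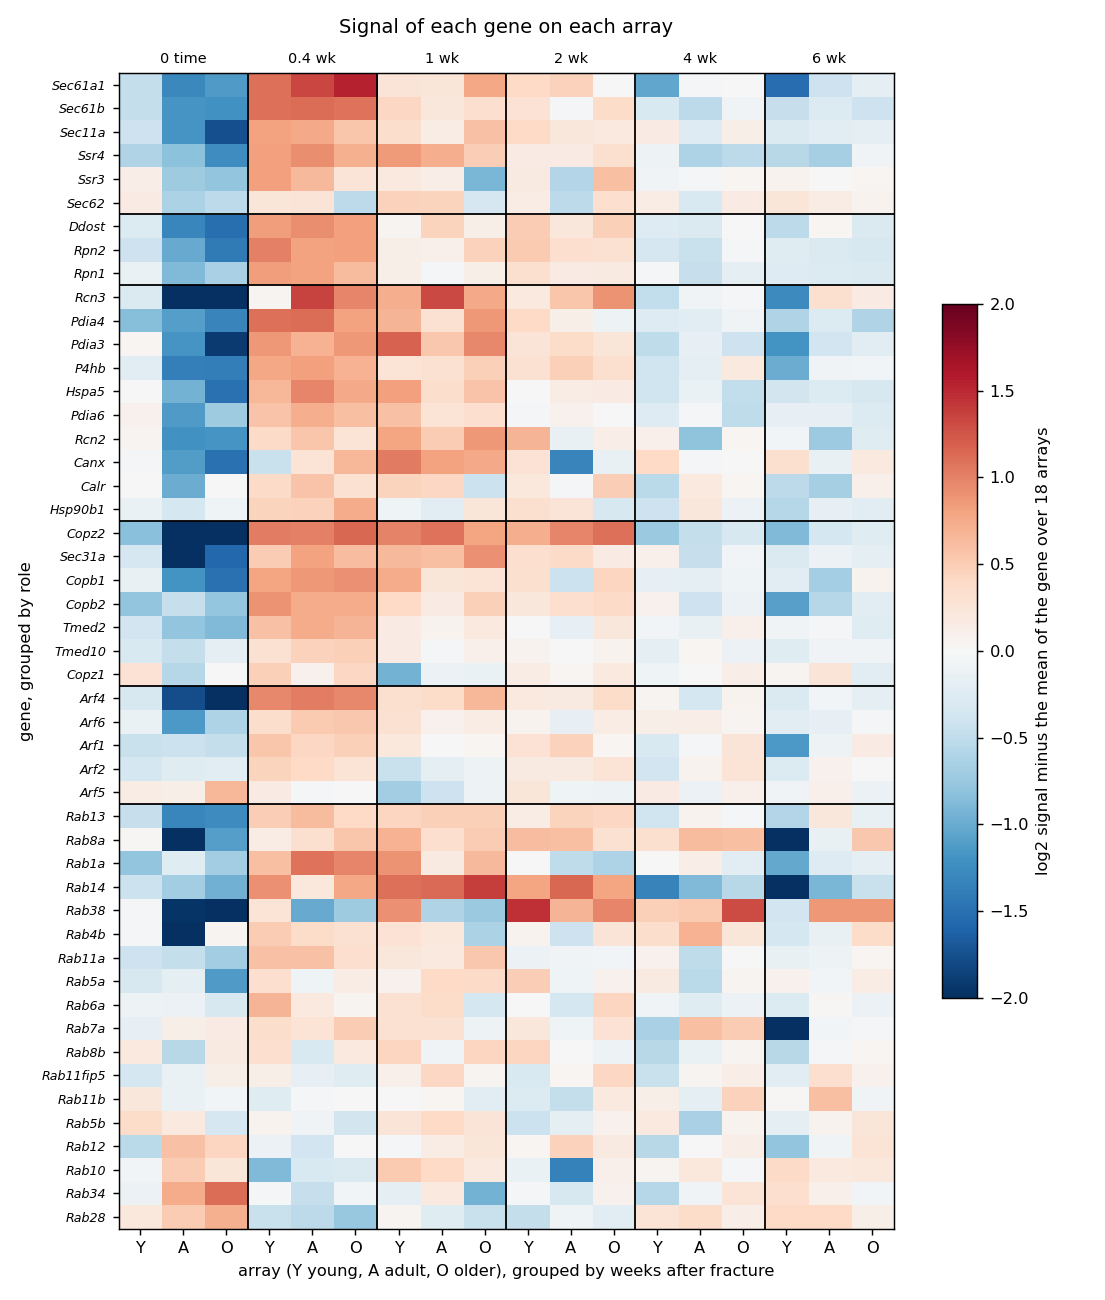
Log2 signal minus the mean of the gene over the 18 arrays (colour, cut at -2 and 2) for the 49 genes of the 6 roles averaging 200 or more (rows, grouped by role) on each array (columns, by weeks after fracture and, within a time, young, adult and older). Most ER, coat and Arf rows are blue at 0 time, above all in adult and older rats, and red at 0.4 week, while most Rab rows show no such step.

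Because the controls differed between ages, 0.4 week was also set against 6 weeks in the same fit, a comparison added after the data were seen. The difference itself does not use the 0 time arrays, but its SE comes from the same fit of all 18 arrays. Of the 67 genes 25 were higher at 0.4 than at 6 weeks and 1 was lower, against 6.06% and 6.01% of all probe sets. Of the 29 ER and coat genes 19 were higher and 0 lower, with a median log2 difference of 1.03 against -0.04 over all probe sets. Sec61b was higher by 1.48 ± 0.17 (adjusted p = 0.00045), Pdia4 by 1.50 ± 0.18 (0.00062), Copb2 by 1.42 ± 0.19 (0.0012) and Rpn2 by 1.16 ± 0.20 (0.0043). The 6-week arrays include the young array with the high Gapdh ratio.

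The 26 genes with several probe sets allowed a check within the array. At 0.4 week 17 of them were called by their brightest probe set, and of the 23 other probe sets of these 17, 19 had a change of the same sign, 14 of them past the test. At 1 week 21 of 24 had the same sign, with 15 called, and at 2 weeks 12 of 19, with 8 called. None of these other probe sets was called in the opposite direction at any time. The check left out genes whose brightest probe set was not called. Among those, the second probe set of Rab4b was called lower at 0.4 and 1 week (log2 -0.69 and -0.67). Its brightest read 1.10 and 0.66.

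The ages differed before fracture more than after it. At 0 time the mean log2 signal of the 50 brighter genes was 9.89 (young), 9.28 (adult) and 9.31 (older). At 0.4 week it was 10.55, 10.55 and 10.53, and at 1 week 10.45, 10.35 and 10.33. At 6 weeks it was 9.62, 9.99 and 10.04. Over these genes the standard deviation between the 3 ages had a median of 0.44 at 0 time, of 0.14 at 0.4 week and of 0.24 at 6 weeks, and over all probe sets as bright it was 0.43, 0.19 and 0.27, so the narrowing was shared by the array as a whole. In the 29 ER and coat genes the level at 0 time was highest in the young rats for 23, and the median difference was -0.80 for adult minus young and -0.73 for older minus young. The young control was highest for 2416 of all 8740 probe sets and for 1712 of the 4108 averaging 200 or more. Over all probe sets the median was 0.10 for adult minus young and 0.11 for older minus young, and over those as bright -0.07 and 0.0. Each age has 1 control array of 2 pooled rats, so these differences at 0 time have no replicate.

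**Figure D5:**
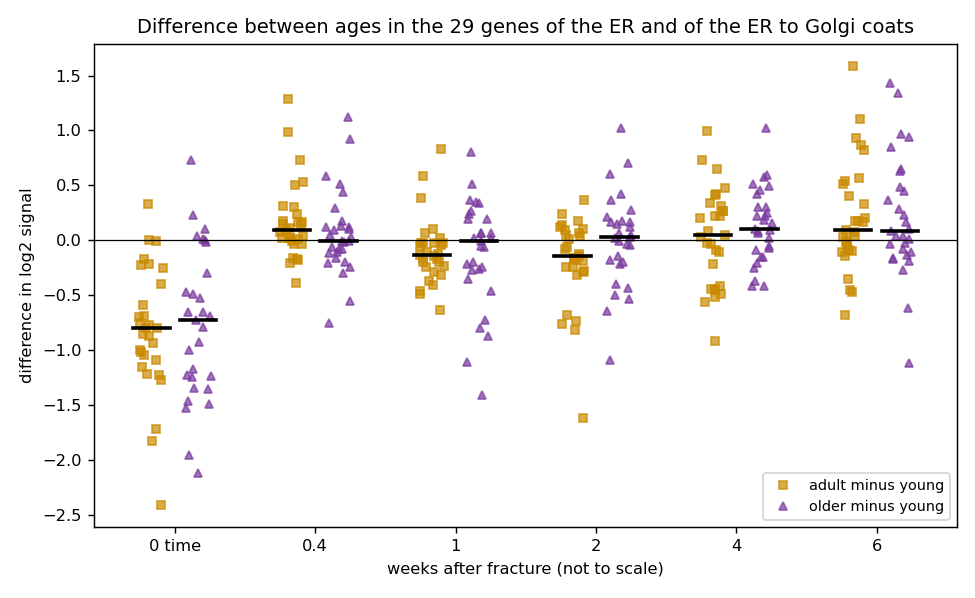
Difference in log2 signal (vertical axis) between adult or older and young rats for the 29 genes of ER entry, oligosaccharyl transfer, folding and coats, at each time (horizontal axis, in weeks and not to scale). Each point is a gene and black bars are medians, which are -0.80 (adult) and -0.73 (older) at 0 time, and for older rats lie between -0.01 and 0.10 later.

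With these control arrays, the change from the own control was larger in the older rats. The median change of the 29 genes, as the mean of the later times minus the control, was 0.32 for the young, 1.12 for the adult and 1.44 for the older rats. The error of the difference between older and young rats comes from the later arrays alone, where the median standard deviation between ages was smaller than at 0 time, and does not hold the spread of the controls, of which each age has 1. It therefore does not establish a difference between the ages, and the values are given as a description. The fit put 10 of the 67 genes past its threshold as higher and 1 as lower, against 3.57% and 3.02% of all probe sets. In the folding group these were Rcn3, with a log2 difference of 2.83, Pdia3 with 2.12, P4hb with 1.50 and Hspa5 with 1.48. For Hspa5 the change from the own control was 0.15, 1.15 and 1.63 in young, adult and older rats. For Pdia3 it was 0.08, 1.40 and 2.20, so that for both genes the young rats were, on average over the later times, close to their control.

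The others were Arf4 with a log2 difference of 2.00, Copz2 with 1.80, Sec11a with 1.33, Ddost with 1.32, Sec31a with 1.26 and Rpn2 with 1.03. The 1 lower gene was the dim Rab3a. Of the 10, Arf4, Copz2, Pdia3 and Sec11a were past the threshold under every setting run for this difference. P4hb was not with quantile normalization, without the intensity trend or with the mean of its probe sets, nor were Rcn3 and Hspa5 with the mean of theirs. Sec31a was not with median scaling or the offset, Ddost not with the offset, and Rpn2 not with the offset, the floor of 1 or the limit on the mean signal. For the 10 genes, older minus young at 0 time was negative for all, down to -2.12 for Rcn3, and over the later times it was -0.03 to 0.71. The difference between the ages in these genes thus lay mostly in the control arrays. On those arrays the summed signal of fibroblast markers was 44538, 16284 and 5487 for young, adult and older rats, that of osteoblast markers 87509, 41854 and 22598, and that of skeletal muscle markers 202007, 393951 and 325070. The part of these tissues in the difference was not tested, and with 1 control array for each age it cannot be told apart from age.

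After fracture, none of the 67 genes differed between older and young rats past the test. Over the 5 later times limma called 0 of all 8740 probe sets (0%). At an unadjusted p under 0.05, 5 of the 67 genes were higher and 0 lower, against 516 and 587 of all 8740 probe sets. From 0.4 to 2 weeks 0 of the 67 were called (all probe sets 0.0343%). At an unadjusted p under 0.05, 0 were higher and 1 lower, against 207 and 360 of all probe sets. At 4 and 6 weeks 0 were called (2.12%), with 15 higher and 1 lower at an unadjusted p under 0.05, against 869 and 570 of all 8740 probe sets. With each array scaled to its median the 15 became 8, and the median difference of the 67 genes went from 0.11 to -0.0004. For the difference between these phases 0 were called (0.252%). At an unadjusted p under 0.05, 10 were higher and 1 lower, against 690 and 249 of all probe sets. The late comparison rests on the young arrays with Gapdh ratios of 3.48 and 6.57, and it moved with the processing: with probe sets averaging 200 or more alone, 6 genes were called higher in older rats, Arf1, P4hb, Rab12, Rab14, Rab7a and Sec61a1, against 249 higher and 90 lower of all 4108 so tested. Whether RNA quality had a part was not tested. Without the young arrays, 21 genes were higher than 0 time at 4 weeks and 19 at 6 weeks, while over all probe sets those higher went from 289 to 725 and from 49 to 680.

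Other genes of the pathway, taken from lists chosen by function, moved in part with the named ones. Of 9 measured genes of collagen modification, 8 rose and 0 fell at 0.4 week, with a median log2 change of 2.07. Ppib, a prolyl isomerase of the ER, rose by 2.05 ± 0.35 (adjusted p = 0.0018), P4ha1, the catalytic subunit that pairs with P4hb, by 2.90 ± 0.51 (0.0022), the lysyl hydroxylase Plod1 by 1.52 ± 0.38 (0.012) and the lysyl oxidase Lox by 4.84 ± 1.21 (0.013). Of 11 genes of signal recognition, signal peptide cleavage and N-glycosylation, 6 rose and 0 fell, with a median of 0.83. Named by the smallest F-test p they were Rrbp1, the ribosome receptor of the ER (1.93 ± 0.18, adjusted p = 9.1e-05), the glucosidase Mogs (0.99 ± 0.18, 0.0024), Dad1, a further subunit of the oligosaccharyl transferase (1.01 ± 0.16, 0.0011), and Dpm2, of dolichol phosphate mannose synthesis (0.47 ± 0.13, 0.018).

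A list of ER stress genes and other ER chaperones was divided. It leaves out the genes described above, so that Hspa5, Hsp90b1 and Pdia4 are not counted in it. Of 12 measured, 5 rose and 2 fell at 0.4 week, with a median of 0.22. Calu, a calcium-binding protein of the ER, rose by 1.52 ± 0.22 (adjusted p = 0.00082), Vcp, the ATPase that draws proteins out of the ER for degradation, by 1.19 ± 0.16 (0.00064), and the chaperone Erp29 by 1.31 ± 0.28 (0.0061). Eif2ak3 (PERK), a stress sensor, rose by 1.30 ± 0.23 at 1 week (0.0025). Chosen after their values were seen, Ppp1r15a (GADD34), which reverses the translation arrest, fell by 1.43 at 1 week (adjusted p = 0.0058), and Ddit3 (CHOP), the death-linked factor of the same branch, was not called at any time (-0.67 ± 0.30 at 0.4 week, adjusted p = 0.10). The list therefore did not move one way.

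Of 57 other genes of vesicle traffic, 16 rose and 7 fell at 0.4 week, with a median of 0.17. Lman1 (ERGIC-53), a cargo receptor for glycoproteins, rose by 2.83 ± 0.26 (adjusted p = 9.1e-05), the clathrin light chain Clta by 1.32 ± 0.18 (0.00058), Ap2a2, of a clathrin adaptor, by 1.01 ± 0.17 (0.0016), and the SNARE Ykt6, which was dim, was called higher as well. Of 27 secreted matrix proteins, the cargo of the pathway, 17 rose and 2 fell at 0.4 week, 22 rose at 1 week and 21 at 2 weeks, with medians of 1.74, 2.07 and 1.92. Comp, of cartilage, was up by 2.49 ± 0.49, 3.91 ± 0.49 and 4.19 ± 0.49 at the first 3 times (adjusted p = 0.0039, 0.00079 and 0.0027). Col10a1, of hypertrophic cartilage, was at -0.54 ± 1.06 and 6.96 ± 1.06 at 0.4 and 2 weeks (adjusted p = 0.75 and 0.0043), and the proteoglycan Vcan was at 3.50 ± 0.54 at 1 week (adjusted p = 0.0016). Bglap (osteocalcin) fell by 1.21 at 0.4 week (adjusted p = 0.0078). These lists were picked with earlier results of these data in view, so their counts are descriptions.

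Markers of other cells moved with the rise. At 0.4 week 18 of 19 skeletal muscle markers fell, and their summed signal went from 202007 to 393951 at 0 time to 49653 to 55959, and was 174185 to 215138 at 6 weeks. All 7 erythroid and all 7 granulocyte markers fell, from sums of 72578 to 107047 and 32714 to 51769 at 0 time to 10893 to 19598 and 1234 to 15613. Of 8 fibroblast markers 7 rose, from 5487 to 44538 in sum to 61776 to 74493. Of 6 osteoblast markers 3 rose and 1 fell, and their sum went from 22598 to 87509 to 62444 to 70189. Of 7 chondrocyte markers 3 rose at 0.4 week and 6 at 1 week, while their sum went from 396 to 2700 at 0 time to 4216 to 4468 at 0.4 week and 24045 to 27892 at 2 weeks, when the ER and coat genes were past their highest level. Of macrophage markers 1 of 5 rose, of mast cell markers 3 of 9 fell, of endothelial markers 1 of 4 fell, of osteoclast markers 0 of 4 passed the limma test (0 at an unadjusted p under 0.05), and of neuron markers 1 of 10 rose and 1 fell. The 2 measured markers of B lymphocytes and plasma cells, cells rich in ER, both fell at 0.4 week. In such mixed tissue, more cells of a secreting type and more RNA of these genes in each cell cannot be told apart, and the part of the fall of muscle and marrow RNA in the rise was not tested.

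Among genes other than the 67, those whose log2 signals over the 18 arrays ran most like P4hb, among 3333 probe sets with 1 symbol averaging 200 or more, were Plcd1 (Pearson r = 0.98), Morf4l2 (0.97), Eno1 (0.97), Ptbp1 (0.97), S100a10 (0.96), Anxa2 (0.96), Lox (0.96), Tpm4 (0.96), Scd2 (0.95), Cspg4 (0.95). For Hspa5 they were Lrrc59 (0.95), Scd2 (0.94), Serp1 (0.94), Cdk4 (0.93), Lxn (0.93), Aldh7a1 (0.93), Ppib (0.93), Calu (0.93), Lox (0.93), Ufsp2 (0.93). Lox and Scd2 stood in both lists, through different probe sets. Serp1 and Lrrc59, proteins of the rough ER, and Ppib and Calu, of its lumen, were among those closest to Hspa5. Among the 67, Ddost (0.95), Rab13 (0.95) and Copz2 (0.94) ran closest to P4hb, and Pdia3 (0.95), Pdia6 (0.95) and Ssr4 (0.92) closest to Hspa5. The arrays share the time course, so a high r says that the genes rose and fell at the same times.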

How the data were processed

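RNA was measured on 18 Affymetrix rat genome arrays, 1 for each of 3 ages and 6 times, each with RNA of 2 pooled rats; the study's other arrays were not analysed here. The deposited values are linear intensity signals, which the authors computed with Microarray Suite 5.0 and brought to an average of 500 on every array. All 18 value columns were used, and no pair of arrays held equal values.

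Of 8799 probe sets, 59 manufacturer controls were left out. Signals were floored at 20 and taken to log2. Of the 8740 others, 7006 had 1 gene symbol, 308 several and 1426 none in the platform annotation; 2 probe sets named for Rab1a and Rab1b together were left out of the members. The tests used limma, version 3.58.1, in R 4.3.3 (lmFit, eBayes with an intensity trend, Benjamini-Hochberg over all 8740, threshold 0.05). Changes with time used all 18 arrays with age and time as terms (10 residual degrees of freedom). Older and young rats were compared over the 5 later times (8), within 0.4 to 2 and 4 to 6 weeks (6), and in their change from 0 time (8). The scripts were tested on simulated data. The number of arrays limits the precision. Promoter sequences are those of RefSeq for GRCr8. Figures were drawn with matplotlib 3.10.9.

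The members, lists and tests were chosen with earlier results of these data known. The rule for naming was: all genes of folding, ER entry and oligosaccharyl transfer; of the coat, Arf and Rab groups up to 6 called genes with the smallest F-test p and the 3 brightest not called; up to 10 called per comparison of ages; up to 4 called per list; dim genes by name only. Correlations are descriptions. Alternatives: 1 as the floor, an offset of 50 instead, quantile and median scaling, a mean signal of at least 200, no trend, no age term, each age, late young arrays or each later time left out, the mean of all probe sets of a gene, age as a linear term, older against adult, and the methods' t-test. The comparison of 0.4 with 6 weeks was added after the data were seen.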

Additional observations from a re-analysis of the deposited data

Results flagged for a closer look

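The fit put 11 genes past its threshold for the difference between older and young rats in the change from the own control. Each age has 1 control array of 2 pooled rats, whose spread the error does not hold, so a difference between the ages is not established by it. On the log2 scale, older minus young, the difference was 2.83 for Rcn3, 2.12 for Pdia3, 2.00 for Arf4, 1.80 for Copz2, 1.50 for P4hb and 1.48 for Hspa5. It was 1.33 for Sec11a, 1.32 for Ddost, 1.26 for Sec31a and 1.03 for Rpn2, and -2.32 for the dim Rab3a.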

How the results depend on the processing

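The count of 30 genes called by the F test was 30 to 34 under the settings that kept all 3 ages, and 0 to 33 with 1 age left out. With 1 age left out, 10 to 34 genes rose and 1 to 5 fell at 0.4 week, 4 to 31 and 0 to 4 at 1 week, 0 to 28 and 0 to 3 at 2 weeks, 0 to 21 and 0 to 1 at 4 weeks, and 0 to 19 and 0 to 1 at 6 weeks. The low ends came from leaving out the adult or older arrays and the high ends from leaving out the young ones. Over all 8740 probe sets, 148 to 1282 rose and 182 to 1689 fell at 0.4 week in the same fits. Without the replicate block (no age term) 30 genes passed the F test, 33 rose at 0.4 week and 8 at 4 weeks, and of the 28 genes checked at their week of largest change no call changed. The t-test named in the methods, on linear signals, gave 18 genes higher and 0 lower at 0.4 week and 0 in either direction at 1, 2 and 4 weeks after adjustment, and 35, 32, 26 and 12 higher at an unadjusted p under 0.05.

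The 4-week count of 6 genes was 11 with a floor of 1, 10 with an offset of 50, 10 with quantile normalization, 1 with median scaling, 12 with a mean signal of at least 200 and 3 without the young 4- and 6-week arrays. At 6 weeks 1, 1, 5 and 1 genes rose with the floor of 1, the offset, the signal limit and without those young arrays. Of the falls, the signal limit left 1 at 0.4 and 1 at 2 weeks, leaving out those young arrays 1 at 0.4 week, the mean of all probe sets 1 at 2 weeks, and 1 gene was lower at 0.4 than at 6 weeks. For older against young at 4 and 6 weeks, 5, 4, 3, 6 and 1 genes were higher with the floor of 1, the offset, quantile normalization, the signal limit and the mean of all probe sets; late minus early, 2 were higher with the signal limit. In the response 0 were lower with the signal limit, which drops the dim Rab3a, and between 7 and 11 were higher under all settings. Arf2 at 0.4 week was -0.31 with the mean of its probe sets. The cause of these shifts was not tested, except where fewer arrays or probe sets were used by construction.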
